A study of Mus musculus with 6 samples.

Results

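The 10 genes described here mark macrophages in mouse tumours. They were named as C1qa, C1qb, C1qc, Arg1, Pf4, Apoe, Cd68, Lyz2, Mrc1 and Csf1r, and each was found in the count table by matching its Ensembl identifier to its symbol, giving 10 of the 43629 genes of the table. No measured value took part in the rule, although the genes were listed with earlier results of these data known. All 10 were detected both under anti-PD-1 and in control, alongside further macrophage genes such as Adgre1 (11 and 8 counts).

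The tumours were B16F10 melanomas, a transplantable mouse melanoma line, grown under the skin of 8-week-old female C57BL/6J mice with an intact immune system. The 6 pools were anti-PD-1 with DMSO, AZD5363 and MK1775 with control IgG, AZD5363 and MK1775 with anti-PD-1, KS100 with control IgG, KS100 with anti-PD-1, and the control, which had DMSO with control IgG. The pool that received AZD5363, MK1775 and anti-PD-1 is called the combination pool. AZD5363 inhibits the kinase AKT, MK1775 the kinase WEE1 and KS100 aldehyde dehydrogenases, and anti-PD-1 blocks an inhibitory receptor of T cells. Treatment was daily until the control tumours reached 2000 mm3, and the tumours of each treatment were pooled into 1 library, so every treatment had 1 sample and no comparison of 2 pools had a replicate check. All intervals cover counting error only.

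Macrophages are phagocytes that enter tumours largely as blood monocytes and depend on signals through the CSF1 receptor. In tumours they take up dead cells and lipid, make complement C1q, and can express genes of an alternative state such as Arg1 and Mrc1, while T cell-derived interferon pushes them towards antigen presentation. In whole tumour RNA, fewer macrophages and less of a transcript per macrophage cannot be told apart.

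The libraries held 25521 to 1591673 counts, a 62.4-fold range. The anti-PD-1 (1002088), combination (338474) and control (1591673) pools were the 3 deepest. Mitochondrial genes took 13.2% to 19.8% of counts in the 4 inhibitor pools, against 1.29% under anti-PD-1 and 1.89% in control. In the combination pool 27.4% of counts lay on ribosomal RNA genes. These include the mitochondrial ribosomal RNA genes, so the ribosomal and mitochondrial shares overlap and cannot be added. The limit that a count of 0 allows, 3 counts, was 112.6 CPM (counts per 1000000 counts) in the AZD5363+MK1775 pool, 67.0 in KS100 and 118 in KS100+anti-PD-1, against 1.88 CPM in control. Genes seen neither in control nor under anti-PD-1 took 4.47% of the KS100 counts and 9.15% of the KS100+anti-PD-1 counts, and at that rate per base of exon the 10 genes would hold 1.77 and 2.07 counts there by background alone, a rough guide.

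The 10 genes together held 970 counts under anti-PD-1, 13 in AZD5363+MK1775, 194 in AZD5363+MK1775+anti-PD-1, 10 in KS100, 2 in KS100+anti-PD-1 and 799 in control. As a share of all counts this was 0.0968% (0.0908 to 0.103, exact binomial interval) under anti-PD-1, 0.0573% (0.0495 to 0.0660) in the combination pool and 0.0502% (0.0468 to 0.0538) in control. Apoe made up 60.6% of the counts under anti-PD-1, 37.6% in the combination pool and 75.6% in control. The 9 other genes held 382 counts under anti-PD-1 and 121 in the combination pool, against 195 in control, and 1, 8 and 2 counts in the AZD5363+MK1775, KS100 and KS100+anti-PD-1 pools. The sum of the 9 genes was thus measured on over 100 counts in the 3 deepest pools and on under 10 in the others, and several single genes had under 10 counts in the combination pool.

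**Figure D1:**
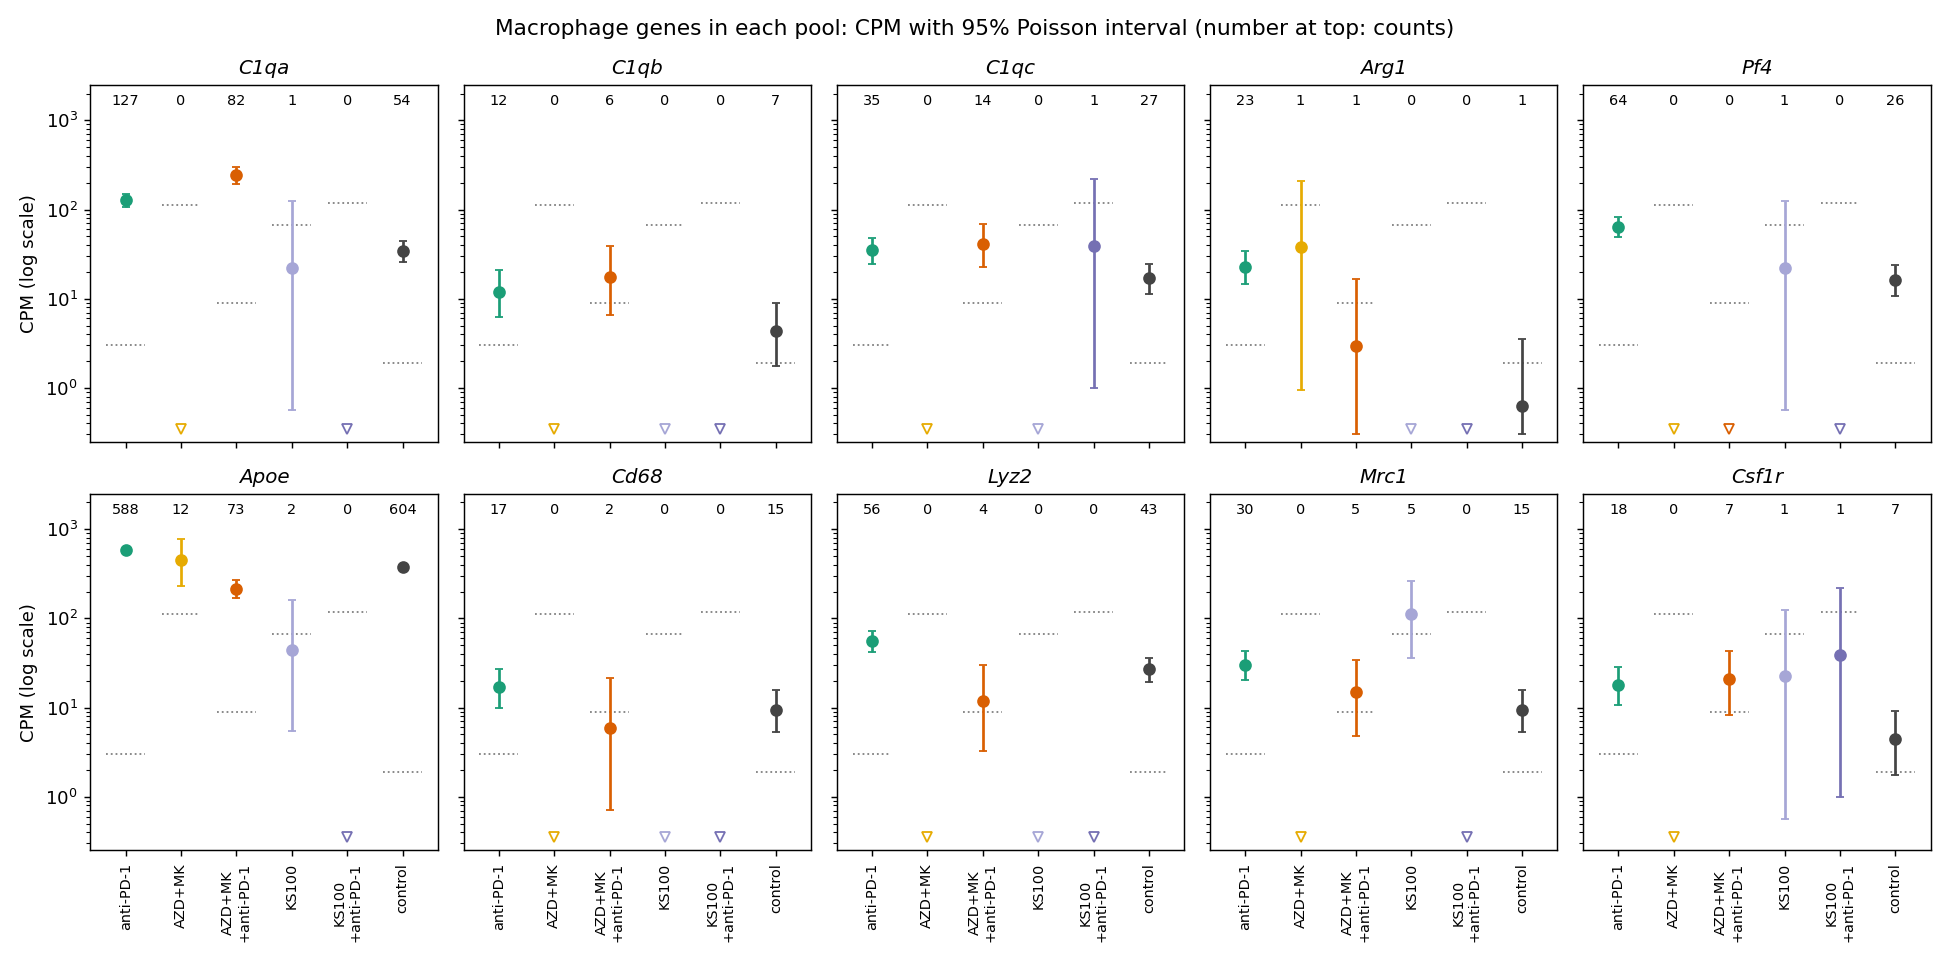
CPM of each of the 10 genes (vertical axis, log scale) in the 6 pools, with the count printed above each point; AZD+MK stands for AZD5363+MK1775. Bars are 95% Poisson intervals, ended at 0.3 CPM where they reach lower, dotted lines mark 3 counts in that pool, and open triangles stand for 0 counts. Apoe has counts in every pool but KS100+anti-PD-1, and Pf4 has 0 counts in the combination pool against 64 under anti-PD-1.

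Ratios between pools are ratios of counts normalised by TMM (trimmed mean of M-values). Genes reaching 20 counts in either pool were called where they differed by 2-fold or more and where the whole 95% exact interval was past 1.5-fold. This is a rule of size, not a test. The 5 comparisons with control share 1 control library, and comparisons that use the anti-PD-1 pool share that library.

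The antibody without an inhibitor was compared with control first. Macrophage transcripts were more abundant under anti-PD-1. Of the 7 genes with enough counts, 4 were called higher (C1qa, Arg1, Pf4 and Mrc1) and none lower, while 4.83% of all 8119 genes tested were called in either direction, 2.69% higher and 2.14% lower. Arg1 (23 counts against 1) and Mrc1 (30 against 15) had enough counts for the rule under anti-PD-1 only. Their place among the 7 genes was thus not independent of the direction in which they were called. The median log2 ratio was 1.48 for the 7 genes, 1.32 for all 10 and -0.0036 for all genes tested. The 10 genes summed to a ratio of 1.87 (1.71 to 2.06), and the 9 without Apoe to 3.03 (2.54 to 3.61).

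C1qa, C1qb and C1qc encode the 3 chains of C1q, the recognition part of the classical complement pathway, which in tissues is made mainly by macrophages. The genes lie side by side on the minus strand of chromosome 4 (GRCm38), C1qa at chr4:136895917-136898803, C1qc at chr4:136889804-136893065 and C1qb at chr4:136880129-136886187. C1qa had 127 counts (126.7 CPM) under anti-PD-1 and 54 (33.9 CPM) in control, a ratio of 3.63 (2.62 to 5.09). C1qc, at 35 and 27 counts, had a ratio of 2.002 (1.18 to 3.44) and was not past the rule. C1qb had 12 and 7 counts and a ratio of 2.65 (0.961 to 7.94), too few counts for the rule. All 3 chains thus had ratios of 2 or more, with C1qa alone past the rule, and the chains summed to 3.05 (2.35 to 3.99).

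Promoters of C1qb, C1qc and Pf4 are shown because C1qb and C1qc belong to the C1q group and Pf4 is 1 of the genes, with Lyz2, whose share of the counts was lower in the combination pool. The sequences are RefSeq's, on GRCm38.p6, each running from 250 bases before to 50 bases after the annotated start in the direction of the gene. They cover chr4:136886151-136886450 (minus strand) for C1qb, chr4:136892865-136893164 (minus strand) for C1qc and chr5:90772185-90772484 (plus strand) for Pf4. Capitals mark the 6-base motif GAGGAA or its reverse complement TTCCTC, which is the core of sites for PU.1, the ETS-family factor of myeloid cells encoded by Spi1. No other motif was searched.
C1qb: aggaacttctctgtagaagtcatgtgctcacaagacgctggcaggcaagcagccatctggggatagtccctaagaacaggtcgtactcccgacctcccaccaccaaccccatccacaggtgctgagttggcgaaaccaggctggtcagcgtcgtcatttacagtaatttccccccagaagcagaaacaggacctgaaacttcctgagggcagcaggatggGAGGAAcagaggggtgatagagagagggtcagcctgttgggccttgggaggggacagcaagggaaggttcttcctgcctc
C1qc: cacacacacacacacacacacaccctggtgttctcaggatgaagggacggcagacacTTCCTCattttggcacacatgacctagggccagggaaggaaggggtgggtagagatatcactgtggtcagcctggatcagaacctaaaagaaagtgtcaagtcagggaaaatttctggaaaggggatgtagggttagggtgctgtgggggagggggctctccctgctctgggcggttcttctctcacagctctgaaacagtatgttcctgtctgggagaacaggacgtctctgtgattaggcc
Pf4: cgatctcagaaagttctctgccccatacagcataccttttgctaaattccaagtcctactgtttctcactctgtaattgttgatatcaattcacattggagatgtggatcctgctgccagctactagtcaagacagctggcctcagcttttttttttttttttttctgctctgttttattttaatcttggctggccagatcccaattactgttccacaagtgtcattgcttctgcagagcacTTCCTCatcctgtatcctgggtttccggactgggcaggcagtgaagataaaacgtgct

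Each of the 3 promoters held 1 copy of the motif. It was on the strand of the gene in C1qb and on the opposite strand in C1qc and Pf4. Over the 9 entries available for 7 of the 10 genes, 7 held the motif on either strand, against 28.3% of all 32851 promoter entries of that length. Such matches describe the letters only. The Lyz2 entry and 1 of the Apoe entries lacked it. Spi1 itself had 10 counts under anti-PD-1, 4 in the combination pool and 7 in control, too few for the rule in any comparison of these pools.

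Arg1, at chr10:24915221-24927484 on the minus strand, encodes arginase, which breaks down arginine and is a gene of alternatively activated macrophages. It had 23 counts under anti-PD-1, 1 in AZD5363+MK1775, 1 in AZD5363+MK1775+anti-PD-1, 0 in both KS100 pools and 1 in control. Among the 3 deepest pools anti-PD-1 was the high one, and its CPM interval overlapped that of the combination pool. Its ratio to control was 35.5 (5.77 to 1463), the largest of the 10 genes, and it rests on a single control count. Of 6 other arginine and nitric oxide genes, Odc1, which makes polyamines from the arginase product ornithine, was 0.481 (0.291 to 0.770) of control and not past the rule. Ass1 had 10 counts under anti-PD-1 and 9 in control, and Nos2, whose enzyme competes for arginine, had 1 count in all, under anti-PD-1.

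Pf4, at chr5:90772435-90773383 on the plus strand, encodes platelet factor 4, a chemokine of platelets that tumour macrophages also express. It had 64 counts (63.9 CPM) under anti-PD-1 and 26 (16.3 CPM) in control, a ratio of 3.80 (2.38 to 6.25). The platelet and megakaryocyte list, of 7 genes, was measured beside it, with 0 of 1 tested called: it held 12 counts under anti-PD-1 and 26 in control (ratio 0.713, 0.328 to 1.46). Of its defining genes, Ppbp had 2 counts and Gp9 none under anti-PD-1, against 0 and 1 in control.

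Mrc1, at chr2:14229392-14332057 on the plus strand, encodes the mannose receptor CD206, which is also made by some endothelial cells. It had 30 counts under anti-PD-1 and 15 in control, a ratio of 3.09 (1.61 to 6.18). Csf1r, at chr18:61100598-61132149 on the plus strand, encodes the receptor for CSF1, the growth factor on which macrophages depend. It had 18 and 7 counts and a ratio of 3.97 (1.58 to 11.2), with too few counts for the rule. Csf1r overlaps Hmgxb3 on the opposite strand, which had 32 counts under anti-PD-1 and 23 in control, and the strand setting of the counting is not given, so their reads may not be separable. Csf1, which encodes the ligand, had 40 and 28 counts and a ratio of 2.21 (1.33 to 3.71), not past the rule.

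Cd68, at chr11:69664213-69666153 on the minus strand, encodes a lysosomal glycoprotein of phagocytes, and Lyz2, at chr10:117277331-117282321 on the minus strand, encodes lysozyme. Cd68 had 17 counts under anti-PD-1 and 15 in control, a ratio of 1.75 (0.822 to 3.76). Lyz2 had 56 and 43 counts and a ratio of 2.01 (1.33 to 3.07), not past the rule. Lyz1, a near copy whose longest annotated transcript shares 93.8% of the last 300 bases with that of Lyz2, was at 0 in every pool, so reads matching both could have been dropped or given to Lyz2. Apoe, at chr7:19696109-19699188 on the minus strand, encodes apolipoprotein E, a lipid carrier also made by melanoma cells. It had 588 and 604 counts and a ratio of 1.503 (1.34 to 1.69), not past the rule.

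**Figure D2:**
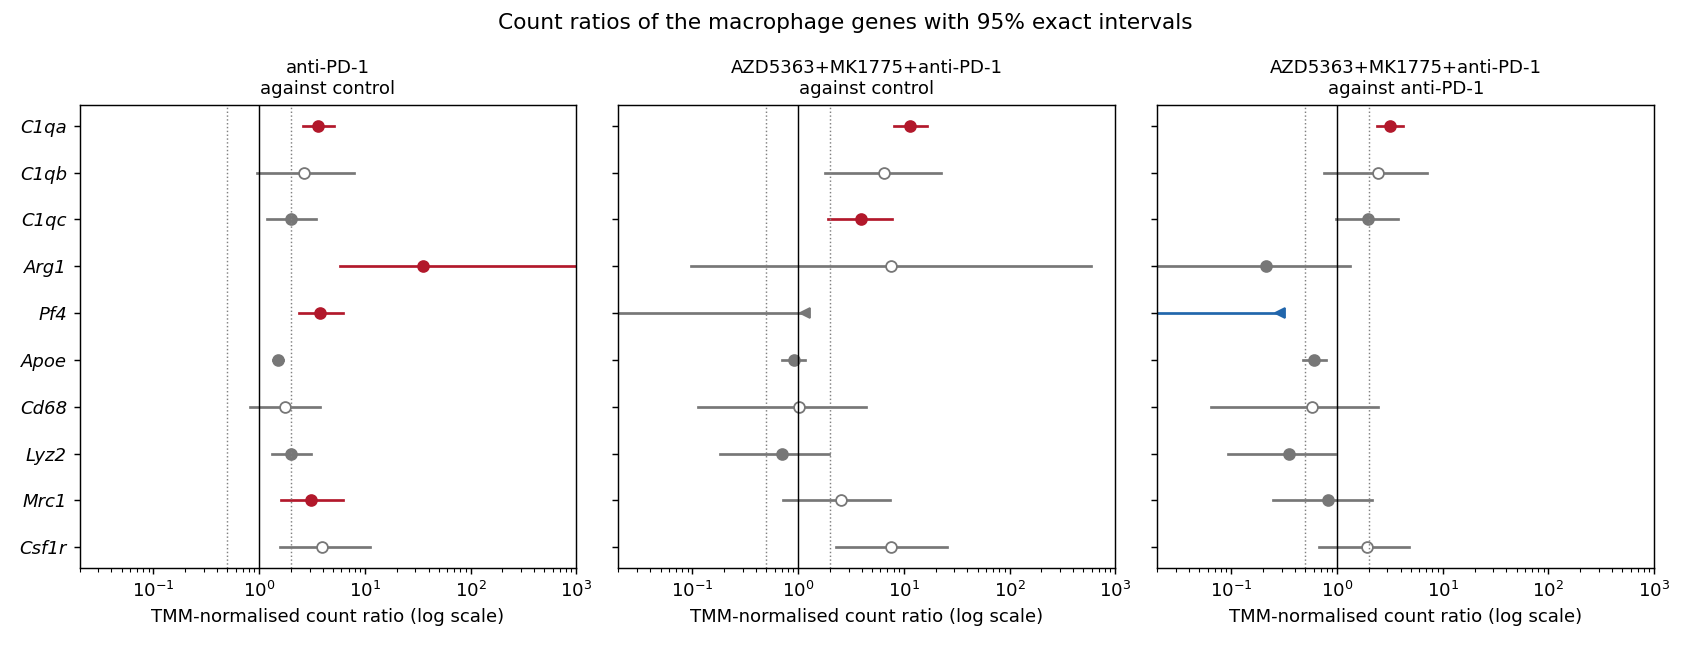
TMM-normalised count ratios (horizontal axis, log scale) with 95% exact intervals, drawn between 0.02 and 1000. Red marks genes called higher and blue genes called lower, open points genes with under 20 counts in both pools, and left-pointing triangles the upper end of the interval of a gene with 0 counts in the numerator pool; dotted lines are at 0.5 and 2. Arg1 is at 35.5 under anti-PD-1 against control and Pf4 is at most 0.292 in the combination pool against anti-PD-1.

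Other macrophage and myeloid genes were also summed. Of 15 surface and identity genes, 13 had a count under anti-PD-1 and 10 in control, and 1, Mertk, had enough counts for the rule. It was at 17 and 27 counts (ratio 0.972, 0.497 to 1.85). The list summed to 2.46 (1.76 to 3.47), from 94 and 59 counts. Adgre1, which encodes the mouse macrophage marker F4/80, had 11 and 8 counts, Itgam 11 and 1, and Ms4a7 10 and 1. Cx3cr1 had 14 and 8 counts, Msr1 10 and 4, and Aif1 6 and 6. The 10 myeloid adaptor and receptor genes summed to 1.93 (1.45 to 2.58), with Fcer1g at 20 and 14 counts and Fcgr3 at 18 and 13. Irf8 (4 and 8), Fcgr2b (10 and 16) and Laptm5 (3 and 5) had fewer counts than in control, and every other gene of this list had more. These are raw counts, not scaled for the lower depth of the anti-PD-1 pool. Among complement genes other than C1q, 1 of 4 tested was higher, C3 at 4.63 (2.01 to 11.9), and the 11 genes summed to 0.960 (0.811 to 1.13). Among alternative activation genes F13a1, a transglutaminase gene of monocytes and macrophages, was higher at 4.98 (2.29 to 12.0), the only member tested, and the 8 genes summed to 2.71 (1.74 to 4.30). Of 12 lysosome and phagocytosis genes, which melanoma cells also express in part, Lgmn was higher at 2.09 (1.73 to 2.53) and Psap lower at 0.440 (0.396 to 0.489), and the whole came to 0.985 (0.957 to 1.01). Lipid handling genes, around Apoe, summed to 1.31 (1.17 to 1.47) with Lpl higher at 2.79 (2.0002 to 3.93) and no other of 5 tested called. CSF1 receptor signalling genes summed to 0.723 (0.600 to 0.867) and arginine genes to 0.688 (0.481 to 0.972), each with 0 of 2 tested called. The first sum mainly follows Grb2, which supplied 126 of its 175 counts under anti-PD-1 and 341 of 374 in control. In raw counts Csf1, Il34, Csf2ra and Csf2rb were higher under anti-PD-1 and Cbl was lower.

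Markers of other cells moved in the same pool. Fibroblast genes summed to 7.31 (6.61 to 8.10), endothelial genes to 2.17 (1.84 to 2.56), skeletal muscle genes to 13.2 (10.5 to 16.9) and erythroid genes to 6.20 (5.76 to 6.67) under anti-PD-1 over control. The neutrophil list, whose cells share Lyz2 and Arg1, held 3 counts under anti-PD-1 and 2 in control, with Ly6g, Elane, Ngp and Retnlg at 0 in every pool. Adipocyte genes summed to 2.70 (2.20 to 3.33) and melanocyte genes to 0.830 (0.815 to 0.845). Dendritic cell genes held 20 counts, against 26 in control, B cell genes 3 against 0, NK cell genes 1 against 4, and mast cell genes 0 in both. The part of stroma, vessel, muscle and blood content in the macrophage ratios was not tested.

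The combination was compared with control and with anti-PD-1 alone to ask what the kinase inhibitors added to the antibody. The macrophage genes did not keep the proportions they had in the other deep pools. C1q transcripts were high in the combination pool, while Pf4 was at 0 and Arg1 at 1 count. Against control, 2 of the 5 genes tested were higher (C1qa and C1qc) and none lower, where 22.9% of all 8059 genes tested were called, 14.9% higher and 8.02% lower. Against anti-PD-1 alone, 1 of 7 was higher (C1qa) and 1 lower (Pf4), where 22.1% of 7138 genes tested were called, 14.0% higher and 8.11% lower. The members' shares are too few genes to set apart from these backgrounds.

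C1qa had 82 counts (242.3 CPM) in the combination pool, against 127 (126.7 CPM) under anti-PD-1 and 54 (33.9 CPM) in control. Its ratio was 11.5 (8.08 to 16.6) to control, or 7.14 (5.004 to 10.3) with library totals, and 3.18 (2.38 to 4.23) to anti-PD-1. With library totals in place of TMM the ratio to anti-PD-1 was 1.91 (1.43 to 2.54), no longer past the rule. C1qc had 14 counts, against 35 under anti-PD-1 and 27 in control, and ratios of 3.94 (1.91 to 7.78) to control and 1.97 (0.978 to 3.75) to anti-PD-1. The first became 2.44 (1.18 to 4.82) with library totals and was then not past the rule. C1qb had 6 counts and ratios of 6.51 (1.81 to 22.6) and 2.46 (0.757 to 7.08), on too few counts for the rule.

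Pf4 had 0 counts in the combination pool, against 64 under anti-PD-1. It was at least 4.34-fold lower than with anti-PD-1 alone, taking 3 counts as the limit for 0, and at least 7.21-fold lower with library totals. These limits take the 64 counts as exact. The exact interval is wider, and under TMM Pf4 reached up to 0.292 of anti-PD-1. Against the 26 control counts, the interval of the ratio reached up to 1.16, so no fall was detectable under TMM, while with library totals it reached up to 0.717 and Pf4 was still not past the rule. Arg1 had 1 count against 23 with anti-PD-1, a ratio of 0.214 (0.00519 to 1.32), and was not past the rule. Lyz2 had 4 counts against 56 with anti-PD-1 and 43 in control, ratios of 0.351 (0.0925 to 0.951) and 0.707 (0.184 to 1.94). Apoe had 73 counts against 588 and 604, ratios of 0.611 (0.472 to 0.780) and 0.918 (0.710 to 1.17). Neither was past the rule under TMM. With library totals Apoe was at 0.568 (0.440 to 0.726) of control, not called, and both were called lower than anti-PD-1, at 0.211 (0.0557 to 0.572) for Lyz2 and 0.368 (0.284 to 0.469) for Apoe, so that 0 members were higher and 3 lower.

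Cd68 had 2 counts in the combination pool, Mrc1 5 and Csf1r 7, too few to resolve. Their ratios to control were 1.01 (0.112 to 4.36), 2.53 (0.720 to 7.33) and 7.60 (2.27 to 25.4). The 10 genes summed to 1.84 (1.57 to 2.16) over control and 0.984 (0.839 to 1.15) over anti-PD-1. With library totals these were 1.14 (0.971 to 1.34) and 0.592 (0.505 to 0.691), so whether the sum differed from either pool depended on the scaling. The 9 without Apoe summed to 4.71 (3.73 to 5.94) over control and 1.56 (1.26 to 1.92) over anti-PD-1, and with library totals to 2.92 (2.31 to 3.68) and 0.938 (0.758 to 1.15). The direction against anti-PD-1 thus turned with the scaling. The median log2 ratio of the 5 genes tested against control was -0.12, beside -0.0075 for all genes tested, and that of the 7 tested against anti-PD-1 was -0.71, beside -0.055. Over all 10 genes, including those with too few counts for the rule, these medians were 1.23 and -0.44. The sign of the median against control thus depended on the count limit.

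Proportions within a pool do not depend on the scaling between pools. C1qa made up 67.8% (58.7 to 76.0, exact binomial interval) of the counts of the 9 genes other than Apoe in the combination pool, against 33.2% (28.5 to 38.2) under anti-PD-1 and 27.7% (21.5 to 34.5) in control. The interval of the combination pool lay wholly above the other 2. Pf4 made up 0% of the 121 counts in the combination pool, which allows up to 2.48%, against 16.8% (13.1 to 20.9) under anti-PD-1 and 13.3% (8.90 to 18.9) in control. Lyz2 made up 3.31% (0.908 to 8.25), against 14.7% (11.3 to 18.6) and 22.1% (16.4 to 28.5). For Pf4 and Lyz2 the combination pool lay below both others. C1qa supplied 82 of the 121 counts there, which by itself lowers the share of every other gene. These shares thus do not measure a fall of Lyz2 or Pf4 apart from the high C1qa.

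Set against C1qa alone, Pf4 held 0 of 82 counts of the pair in the combination pool, which allows up to 3.66%, against 33.5% (26.9 to 40.7) under anti-PD-1 and 32.5% (22.4 to 43.9) in control. The intervals of the anti-PD-1 and control pools overlapped. Other genes paired with C1qa also had lower shares in the combination pool than under anti-PD-1. C1qa was itself called higher there under TMM, so an unchanged gene would have a lower share of the pair too. Lyz2 was at 4.65% (1.28 to 11.5) against 30.6% (24.0 to 37.8). Mrc1 was at 5.75% (1.89 to 12.9) against 19.1% (13.3 to 26.1), and Apoe at 47.1% (39.0 to 55.3) against 82.2% (79.2 to 85.0). For Cd68, at 2.38% (0.290 to 8.34) against 11.8% (7.03 to 18.2), the intervals overlapped. They also did for Csf1r, at 7.87% (3.22 to 15.5) against 12.4% (7.53 to 18.9). The pair shares are thus not separate evidence of a fall. Under TMM the intervals of Lyz2 and Apoe against anti-PD-1, given above, lay below 1. Mrc1 was at 0.820 (0.248 to 2.13) of anti-PD-1, with no detectable fall. Arg1 differed in another way. It made up 0.826% (0.0209 to 4.52) of the 9-gene counts in the combination pool, 6.02% (3.85 to 8.90) under anti-PD-1 and 0.513% (0.0130 to 2.82) in control, with the anti-PD-1 pool high and its interval apart from that of control only. The C1q chains as a whole made up 84.3% (76.6 to 90.3) in the combination pool, 45.5% (40.5 to 50.7) under anti-PD-1 and 45.1% (38.0 to 52.4) in control. C1qc alone held 11.6% (6.47 to 18.7), 9.16% (6.46 to 12.5) and 13.8% (9.33 to 19.5) of the 9-gene counts in that order. C1qb held 4.96% (1.84 to 10.5), 3.14% (1.63 to 5.42) and 3.59% (1.46 to 7.26). The intervals of C1qc and of C1qb overlapped, so of the chains only C1qa had a share of the 9-gene counts set apart in the combination pool. C1qa is part of that total, so its high share lowers those of C1qc and C1qb. Their overlapping shares thus do not show that these 2 chains were unchanged, and shares without C1qa were not computed. Among the chains, the share of C1qa was 80.4% (71.4 to 87.6), 73.0% (65.7 to 79.4) and 61.4% (50.4 to 71.6) in that order, with overlapping intervals.

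**Figure D3:**
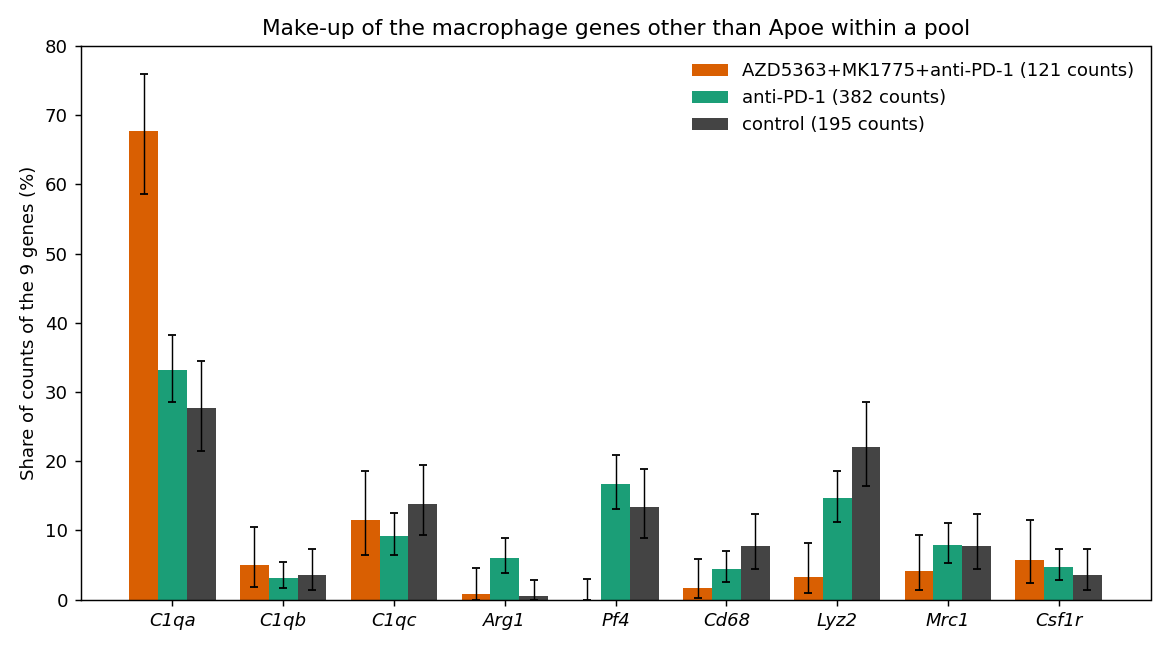
Share of each gene in the summed counts of the 9 macrophage genes other than Apoe (vertical axis, percent) in the AZD5363+MK1775+anti-PD-1, anti-PD-1 and control pools. Bars are shares and whiskers 95% exact binomial intervals; C1qa is at 67.8% in the combination pool, and Pf4, with 0 counts there, is at 16.8% under anti-PD-1 and 13.3% in control.

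Other macrophage and leukocyte genes in the combination pool also differed among themselves. The 15 surface and identity genes held 53 counts, against 94 under anti-PD-1 and 59 in control. They summed to 6.82 (4.62 to 10.1) over control and 2.77 (1.94 to 3.92) over anti-PD-1. With library totals these were 4.22 (2.86 to 6.23) and 1.67 (1.17 to 2.36). No gene of that list was called, with 1 tested against control and 0 against anti-PD-1. The 10 myeloid adaptor and receptor genes summed to 12.6 (9.61 to 16.6) over control and 6.53 (5.06 to 8.44) over anti-PD-1. Irf8, a transcription factor of monocytes and dendritic cells induced by interferon-gamma, had 58 counts against 4 under anti-PD-1 and 8 in control, and Ptprc, the pan-leukocyte gene for CD45, had 40 against 3 and 1. Both were called higher than in either pool under TMM and under library totals, with which the list summed to 7.80 (5.95 to 10.3) and 3.93 (3.05 to 5.08), and they supplied most of the list's 146 counts. Fcer1g, Fcgr3, Cd53, Spi1 and Tyrobp each had between 4 and 9 counts. Aif1, a macrophage cytoskeletal gene, had 17 counts against 6 in each of the other 2 pools, and Adgre1 had 4 against 11 and 8. These are raw counts, and the combination pool is the shallowest of the 3, so the fewer Adgre1 counts do not show a fall. Both genes had too few counts for the rule. Ctss, a lysosomal protease of antigen-presenting cells, was higher than control at 10.7 (8.43 to 13.6), while Ctsl was lower at 0.423 (0.278 to 0.619) and Psap at 0.203 (0.147 to 0.275). Lpl, a lipase gene of macrophages, fat and muscle, was higher than control at 8.40 (5.77 to 12.2) and than anti-PD-1 at 3.01 (2.16 to 4.16). With library totals Ctss, Ctsl, Psap and Lpl kept their calls against control, while Lpl was 1.81 (1.30 to 2.501) of anti-PD-1 and no longer called. Complement genes other than C1q summed to 1.01 (0.738 to 1.36) of control, with none of 2 tested called, and with library totals to 0.627 (0.457 to 0.844), with both called lower. Alternative activation genes summed to 0.339 (0.0894 to 0.916) of anti-PD-1, with F13a1 at 1 count against 29, called lower with library totals and not with TMM.

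Markers of other cells in the combination pool were uneven as well. Erythroid genes summed to 0.0296 (0.0185 to 0.0449) of anti-PD-1, with Hbb-bs at 3 counts against 2755. Skeletal muscle genes summed to 18.4 (16.9 to 20.01) of anti-PD-1, fibroblast genes to 0.402 (0.344 to 0.469) and endothelial genes to 0.589 (0.417 to 0.812). Against control, skeletal muscle genes summed to 243 (194 to 307). Adipocyte genes summed to 3.27 (2.68 to 3.98) of anti-PD-1 and 8.83 (7.05 to 11.1) of control, with Car3, a carbonic anhydrase gene of fat and muscle, at 153 counts against 33 and 2. With library totals the ratios to anti-PD-1 were 11.05 for muscle, 0.242 for fibroblast, 0.354 for endothelial and 1.97 for adipocyte genes. The platelet list held 2 counts against 12, and neutrophil genes 2 against 3. Monocyte genes held 27 counts against 16 under anti-PD-1 and 5 in control, T cell genes 11 against 1 and 2, and NK cell genes 8 against 1 and 4. The part of these cells, and of the overlapping mitochondrial and ribosomal RNA shares given above for this pool, in the macrophage ratios was not tested.

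**Figure D4:**
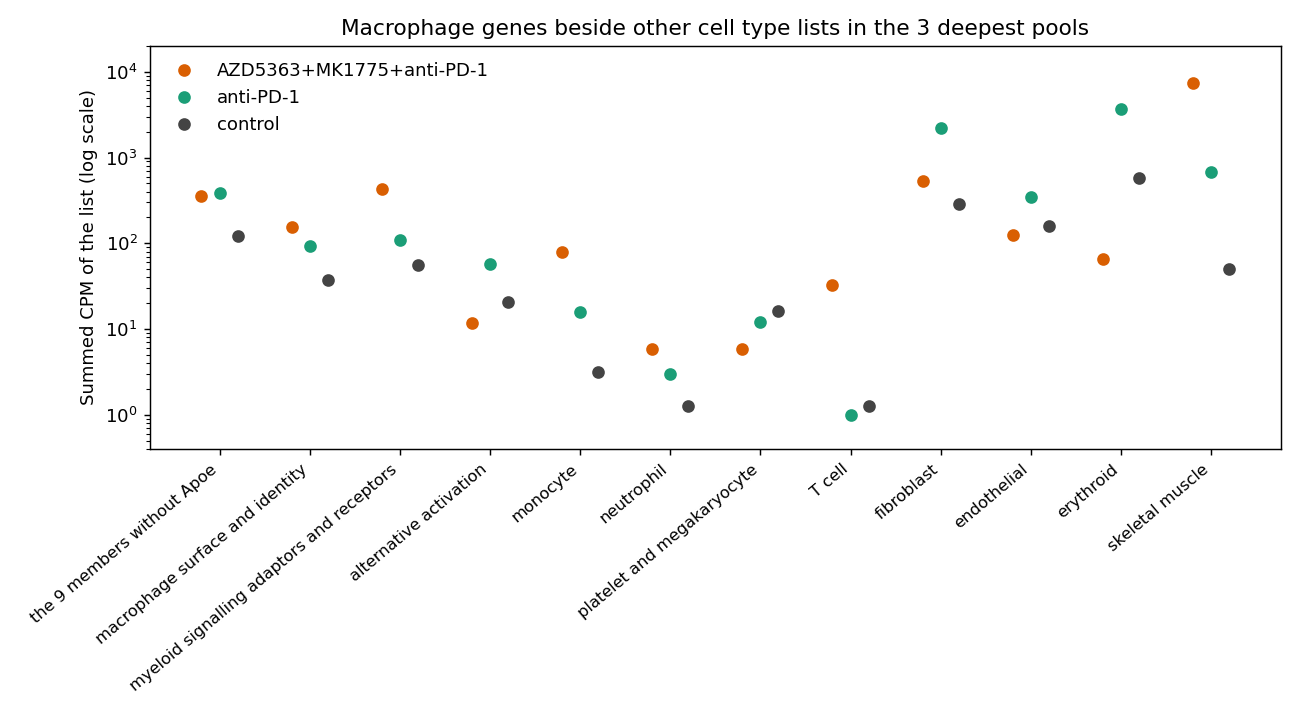
Summed CPM (vertical axis, log scale) of the 9 macrophage genes other than Apoe and of 11 gene lists in the AZD5363+MK1775+anti-PD-1, anti-PD-1 and control pools, each point 1 pool. Skeletal muscle genes are highest in the combination pool, at 7454 CPM, and erythroid genes under anti-PD-1, at 3647 CPM, against 65.0 CPM in the combination pool.

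AZD5363+MK1775 without antibody was set against control, and the combination against AZD5363+MK1775, to ask what the inhibitors did alone and what the antibody added to them. The AZD5363+MK1775 pool held Apoe (12 counts) and Arg1 (1 count) and no count of the other 8 genes. None of the 5 genes tested against control was called, where 2.93% of 7948 genes were, 1.65% higher and 1.28% lower. Apoe was at 1.10 (0.568 to 1.94) of control. C1qa had 0 counts, and the interval of its ratio reached up to 3.93, so neither a rise nor a fall was detectable at this depth. The 9 genes without Apoe summed to 0.285 (0.00718 to 1.61) on 1 count. Against AZD5363+MK1775, the combination had C1qa at 82 counts against 0. Taking 3 counts as the limit for 0, C1qa was at least 3.73-fold higher (2.15-fold with library totals). The exact interval of its ratio under TMM began lower, at 2.97. It was the 1 gene called of 2 tested, where 14.8% of 2793 genes were called, 11.1% higher and 3.72% lower. Apoe, the other, was at 0.831 (0.448 to 1.68).

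KS100 was set against control, and KS100 with anti-PD-1 against control, anti-PD-1 and KS100, which addresses inhibition of aldehyde dehydrogenases with and without the antibody. Apoe was lower in both KS100 pools, and the other genes were near the limit of detection. Apoe had 2 counts in the KS100 pool, a ratio to control of 0.153 (0.0185 to 0.554). It had 0 under KS100+anti-PD-1, where the interval of its ratio reached up to 0.542 of control and 0.361 of anti-PD-1. It was the 1 gene called of 5 tested in the KS100 pool, where 6.36% of 7951 genes were called, 4.50% higher and 1.86% lower. It was also 1 of 5 under KS100+anti-PD-1 against control (7.45% of 7948 called, 4.59% higher and 2.86% lower) and 1 of 7 against anti-PD-1 (6.39% of 6959 called, 3.33% higher and 3.06% lower). The other genes tested had too few counts in the deeper pool to be called lower. Lyz2, at 0 counts in the KS100 pool against 43 in control, had an interval up to 4.13. Apoe had 604 control counts, so these shares of genes called are not a like measure for it. Melanocyte genes, whose cells also make Apoe, summed to 0.292 (0.254 to 0.336) of control in the KS100 pool and 0.167 (0.128 to 0.215) under KS100+anti-PD-1, and their part was not tested. Lysosome genes were lower than control for 3 of 12 tested in the KS100 pool and 6 of 12 under KS100+anti-PD-1, or 5 and 6 with library totals. Between the KS100 pools none of the 10 genes had enough counts, where 38.3% of 209 genes were called, 4.31% higher and 34.0% lower.

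Mrc1 was the member with most counts in the KS100 pool, at 5 (111.7 CPM), against 15 (9.42 CPM) in control, a ratio of 15.4 (4.37 to 44.5). It had too few counts for the rule and would be called higher with a minimum of 10. Even background at the pool's rate would give 0.472 Mrc1 counts. The KS100+anti-PD-1 pool had 0. The KS100 pool also had 1 count each of C1qa, Pf4 and Csf1r, and the KS100+anti-PD-1 pool 1 each of C1qc and Csf1r. The 9 genes without Apoe summed to 1.89 (0.806 to 3.80) of control in the KS100 pool and 0.908 (0.109 to 3.32) under KS100+anti-PD-1, so no difference was detectable. Mertk, a receptor for dying cells, was called higher than control in the KS100 pool at 6.84 (1.74 to 19.6), on 4 counts against 27, and under KS100+anti-PD-1 at 9.84 (1.91 to 32.0), on 3. With library totals neither call held, at 5.27 (1.34 to 15.1) and 6.93 (1.35 to 22.5). The surface and identity list held 15 and 10 counts in these pools, where even background would give 4.22 and 4.93.

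An additive model of inhibitor and antibody over all 6 pools was fitted with edgeR's quasi-likelihood test, in which pools of another treatment serve as replicates and 2 residual degrees of freedom remain. Of the 10 genes, C1qa and Apoe passed its filter on low counts, so it says nothing of the other 8. For KS100, Apoe fell by 3.69 on the log2 scale (SE 1.20, edgeR adjusted p = 0.030), in 2 of 2 KS100 pools, and C1qa was at -1.75 (SE 1.62, edgeR adjusted p = 0.58). In this effect 7.70% of the 4912 genes fitted passed. The Apoe call ended without the control pool (edgeR adjusted p = 0.091), without the anti-PD-1 pool (0.35), without the KS100 pool (0.13) and without the KS100+anti-PD-1 pool (0.73), and it was 0.074 with DESeq2. For anti-PD-1, neither gene passed, where 0.143% of genes did: C1qa was at 2.26 (SE 0.89, edgeR adjusted p = 0.999 and unadjusted p = 0.011) and Apoe at -0.015 (SE 0.77). At an unadjusted p under 0.05 edgeR had 1 of these 2 genes, and DESeq2 passed 0 of 10 and had 0 of 10 unadjusted. For AZD5363+MK1775, neither gene passed with edgeR or had an unadjusted p under 0.05, where 1.34% of genes passed. There C1qa was at 1.10 (SE 0.94) and Apoe at -0.33 (SE 0.81), and DESeq2 gave an adjusted p for 1 of the 10 genes and called 0.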

How the data were processed

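RNA of pooled B16F10 tumours was read from 3' ends with QuantSeq FWD libraries over 151 MiSeq cycles (labels' protocols). The authors deposited raw counts per Ensembl gene. The submitters' processing notes name HISAT2 2.1.0, HTSeq, bcl2fastq and GRCm38. For annotation release, strand setting and multiple matches, nothing is given in the sources used here. Of 43721 rows, 92 were spike-ins, all at 0. GENCODE M21 gave names and positions for 42462 of 43629 genes. The genes and 23 lists were chosen with earlier results of these data known.

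Counts were scaled by TMM (edgeR 4.0.16, R 4.3.3) on genes kept by filterByExpr. Ratios of 2 pools carry 95% exact conditional (Clopper-Pearson) intervals, computed in Python 3.11.15 with scipy 1.17.1. Median log2 ratios used a prior count of 2. CPM are counts per 1000000. The additive fit used edgeR's quasi-likelihood test with Benjamini-Hochberg adjustment over 4912 genes (threshold 0.05; common dispersion 0.215), and SE is the log2 change divided by the square root of F. DESeq2 1.42.0, other scalings, a minimum of 10 counts, thinning to 25521 counts, Apoe left out of sums and each pool left out were alternatives. Both procedures were tested on simulated data with large known changes only, which says nothing of small changes or of few counts. Pools are single samples, so p-values measure spread between treatments' pools. Named list genes were the up to 4 with most counts plus defining markers; the others named were chosen after their values were seen. Background rates came from the 8742 protein-coding genes that were at 0 both in control and under anti-PD-1.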

Additional observations from a re-analysis of the deposited data

How the results depend on the processing

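Leaving Apoe out of the sum took 7 of the 9 summed ratios outside the interval of the sum with Apoe, to 3.03 for anti-PD-1 against control, 0.285 for AZD5363+MK1775, 1.89 for KS100, 4.71 for AZD5363+MK1775+anti-PD-1 and 0.908 for KS100+anti-PD-1, each against control, to 1.56 for AZD5363+MK1775+anti-PD-1 against anti-PD-1 and to 16.5 against AZD5363+MK1775. It gave 0.3001 for KS100+anti-PD-1 against anti-PD-1 and 0.480 against KS100, inside wide intervals. With library totals the AZD5363+MK1775+anti-PD-1 sum was 1.14 of control and 0.592 of anti-PD-1, and 1 member in place of 2 was called against control. Library totals for the 9-gene sum and the lists, added after seeing the data, gave 2.92 and 0.938 for the 9 genes. With DESeq2 size factors or nuclear totals the number of members called was the same in all 9 comparisons, and each summed ratio stayed within the interval given for it. With a minimum of 10 counts, 2 members were called in the KS100 pool against control. Thinned to the shallowest depth, 0 members were called in any of the 9 comparisons, since 0 reached 20 counts. In the additive fit, the members called for KS100 ranged from 0 to 1 when a pool was left out, and 0 were called by DESeq2. Without both KS100 pools, an alternative added after seeing the data, 0 members were called for anti-PD-1 or AZD5363+MK1775. No paired analysis was possible because each treatment has 1 pool and the labels carry no shared replicate numbers. Depth limits the AZD5363+MK1775 and KS100 pools most: 8 genes at 0 in the first could each hold up to 112.6 CPM.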

Other observations

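Genes whose level followed the summed 10 genes most closely were Vapa (r = 0.992), Arl8b (r = 0.991), Eif4enif1 (r = 0.988), Nfyb (r = 0.987) and Mapk3 (r = 0.987), by Pearson's r of log2(CPM + 20) over the 6 pools. The points share 6 libraries of unequal depth, and Apoe supplies most of the sum in the anti-PD-1 and control pools. Vapa, which encodes a membrane contact-site protein, had 408 counts in the anti-PD-1 pool, 75 in AZD5363+MK1775+anti-PD-1 and 386 in control.

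Genes of inflammatory activation were nearly absent from the deep pools. Their 8 genes held 6 counts in the anti-PD-1 pool, 5 in AZD5363+MK1775+anti-PD-1 and 7 in control. Il12b, which encodes an interleukin-12 subunit, had 5 counts in the KS100 pool and 9 in KS100+anti-PD-1, against 0 in control, while Il6 and Il1a were at 0 in every pool. These Il12b counts were too few for the rule. Il12b was at 0 under anti-PD-1 as well, so it is itself among the genes that gave the background rate. At that rate the 8 genes would hold 1.62 and 1.89 counts in the KS100 and KS100+anti-PD-1 pools, and an effect of KS100 on Il12b was not tested.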
